A study of Rattus norvegicus with 16 samples.

Results

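The nuclear genes that encode the subunits of the respiratory chain and ATP synthase were examined in livers of male SD rats, an outbred laboratory strain, that received intraperitoneal saline or xylazine for 28 days. Xylazine is a veterinary sedative that stimulates alpha-2 adrenergic receptors. The rule that picked the members reads the gene symbol: Nduf genes of the A, B, C, S and V series, the 4 Sdh genes, Uqcr genes and Cyc1, Cox genes of the subunit 4 to 8 series, and Atp5 genes. This rule found 84 of the 17544 genes in the table, of which 36 belonged to complex I, 4 to complex II, 9 to complex III, 17 to complex IV and 18 to complex V. Ndufa4 and its homolog Ndufa4l2 were placed with complex IV, where the NDUFA4 protein resides. The groups were saline, 10, 20 and 40 mg/kg xylazine, with 4 animals in each and 16 libraries in all, taken from a study of 40 rats. No allele, transgene or other agent was given in the labels, and replicates were separate liver samples.

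The 5 complexes sit in the inner mitochondrial membrane. Complexes I and II take electrons from NADH and succinate, complex III passes them to cytochrome c, complex IV passes them to oxygen, and complex V uses the proton gradient to make ATP. In hepatocytes, which are rich in mitochondria, the chain powers urea synthesis, glucose production and the oxidation of fatty acids. Subunits of complexes I, III, IV and V are encoded partly in mitochondrial DNA, and those subunits were not analysed here, whereas all subunits of complex II are nuclear.

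The 16 libraries held between 16060000 and 16957000 expected counts each, with ranges that overlapped between groups. Hepatocyte markers were present at high levels, and the 16 genes of that list together made up 14.2% to 17.0% of the TPM total, a unit scaled by transcript length in all libraries. Of 23 muscle marker symbols, 19 were in the table, and their summed level was between 1.49 and 5.04 TPM. The myoglobin gene Mb was at 0 in 15 of the 16 libraries. The 10 mesothelial markers together were between 5.03 and 25.6 TPM in saline and between 19.4 and 30.6 TPM at 40 mg/kg, with none at 0 in all libraries, and their part in the results was not tested. In bulk liver, fewer cells of a type and less RNA per cell cannot be told apart. Library 1 of the 40 mg/kg group stood apart in the effective transcript length implied by its counts and FPKM values, which was a median of 18.4 bases longer than the median over libraries against -9.42 to 6.17 bases in the other libraries. The medians of the subunit genes and of each complex at 40 mg/kg are given with and without it. For single genes this was not done throughout.

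Of the 84 genes, 78 passed the filter on low counts and were tested, 35 in complex I, 4 in complex II, 9 in complex III, 13 in complex IV and 17 in complex V. The 6 genes that did not pass were Ndufa13-ps1 and Atp5hl1, both annotated as pseudogenes, and Cox4i2, Cox6a2, Cox6b2 and Ndufa4l2. In 3 complex IV pairs only 1 partner was therefore found at a measurable level. Cox4i1, the general form of subunit 4, averaged 887 TPM over 16 animals, and Cox4i2, the form known from lung, averaged 0.418 TPM. Cox6a1, the liver form of subunit 6a, averaged 580 TPM, and Cox6a2, the heart and muscle form, averaged 0.0219 TPM. Cox6b1 averaged 453 TPM and Cox6b2, the testis form, 0.687 TPM. Cox7a2, the liver form of subunit 7a, and Cox8a, the general form of subunit 8, averaged 565 and 675 TPM.

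On the TPM scale, which is per transcript length, the median tested gene was at 580 TPM in complex IV and at 483 TPM in complex V, against 166 TPM in complex I, 182 TPM in complex II and 182 TPM in complex III. The highest levels were those of Atp5me, a small membrane subunit of ATP synthase, at 1417 TPM, and Atp5f1b, the catalytic beta subunit, at 1068 TPM. Next in order were Cox6c at 1018 TPM and Atp5mf at 1005 TPM. The highest complex III gene was Uqcrq at 806 TPM, followed by Uqcr10 at 615 TPM and Uqcr11 at 334 TPM. The highest complex I genes were Ndufa11 at 450 TPM, Ndufa6 at 409 TPM and Ndufa13 at 393 TPM. The 4 complex II genes lay close together, with Sdha, the flavoprotein that oxidises succinate, at 154 TPM and Sdhc, Sdhd and Sdhb at 175, 189 and 189 TPM.

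Part of this order depended on transcript length. The effective length of Atp5me was 21.8 bases, so its 1417 TPM rested on 27.0 CPM, counts scaled to a common library total, and 4 genes (Ndufa3, Atp5f1e, Atp5me and Atp5mk) had effective lengths under 100 bases. Atp5f1b, with an effective length of 1433 bases, was at 1343 CPM. The TPM order among the shortest genes was therefore less certain than that among the long ones.

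**Figure D1:**
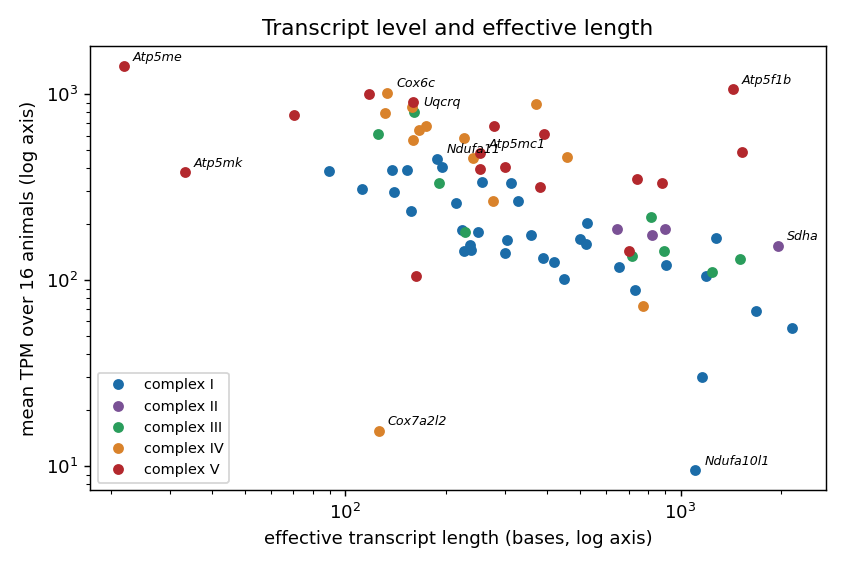
Mean TPM over 16 animals against effective transcript length for the 78 tested genes, 1 point per gene, with both axes on a log scale and colours for the complexes. Complex IV and V genes lie mostly above complex I genes of the same length, and Atp5me reaches 1417 TPM at the shortest length, 21.8 bases.

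Each dose was compared with saline in a study that set out to examine damage to the liver by xylazine. A single subunit gene, Atp5mc1, rose, and no subunit gene fell. Atp5mc1 encodes subunit c, the proton-carrying ring of ATP synthase. The other subunit genes did not pass the test at any dose. Their estimates furthest from 0 were those of Cox7a2l2 (log2 -1.66 at 20 mg/kg and -0.93 at 40 mg/kg) and Ndufa10l1 (0.61 and 0.97), a pair of genes whose levels are uncertain.

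Atp5mc1 was measured at 93.9, 94.6, 93.8 and 86.5 CPM in the 4 saline animals. It was at 85.0, 100, 97.5 and 106 CPM in animals given 10 mg/kg. At 20 mg/kg it was at 125, 116, 107 and 103 CPM. At 40 mg/kg it was at 117, 124, 129 and 129 CPM. All 4 animals at 20 mg/kg and all 4 at 40 mg/kg lay above the highest saline animal, as for 2.29% and 4.45% of all genes tested. The 10 mg/kg animals overlapped saline. The means were 92.2 ± 3.82, 97.1 ± 8.82, 113 ± 9.89 and 125 ± 5.96 CPM (SD, n = 4 animals). Against saline, the log2 fold change at 40 mg/kg was 0.43 (SE 0.078), with an adjusted p of 0.0177 by edgeR's quasi-likelihood test with Benjamini-Hochberg adjustment over 12732 genes. By p it was gene 31 of those tested. The linear trend with dose was 0.45 (SE 0.074) over the full span of doses, with an adjusted p of 0.00801 in the same test, and the test of any dose gave an adjusted p of 0.0474. The log2 fold change was 0.29 at 20 mg/kg, which did not pass (adjusted p 0.280), and 0.07 at 10 mg/kg (adjusted p 0.999). Between 10 and 40 mg/kg it was 0.36 (adjusted p 0.0622).

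The call at 40 mg/kg was lost on leaving out saline animal 1, saline animal 4 or 40 mg/kg animal 4, with a largest adjusted p of 0.0578, and the any dose call was lost in 14 of 16 such removals. Among the xylazine doses alone, without saline, the trend was 0.34 (adjusted p 0.126), whereas with the implied length of each gene in each library as an offset the change at 40 mg/kg was 0.42 (adjusted p 0.0365).

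Subunit c is encoded by 3 nuclear genes whose mature proteins are identical, so they are a natural comparison for Atp5mc1. How the authors' counting divided reads shared between them, or with pseudogene copies, was not stated. Atp5mc2 was at 102, 95.2, 109 and 109 CPM in saline and at 120, 104, 109 and 115 CPM at 40 mg/kg. Atp5mc3 was at 167, 203, 213 and 190 CPM in saline and, at 40 mg/kg, 242, 222, 209 and 198 CPM. For both genes the groups overlapped, with log2 fold changes of 0.11 (SE 0.068, adjusted p 0.460) for Atp5mc2 and 0.17 (SE 0.093, adjusted p 0.386) for Atp5mc3. The summed CPM of the 3 genes was 389 ± 22.0 in saline, 418 ± 26.5 at 10 mg/kg, 435 ± 26.6 at 20 mg/kg and 454 ± 16.6 at 40 mg/kg (SD, n = 4). On the TPM scale Atp5mc1 made up 30.3% ± 1.82 of subunit c transcripts in saline, 29.8% ± 1.51 at 10 mg/kg, 33.2% ± 2.17 at 20 mg/kg and 34.8% ± 2.75 at 40 mg/kg. The share at 40 mg/kg ran from 30.9% to 36.9%, and that in saline from 28.8% to 32.5%, so the shares overlapped, and whether the 3 genes differ in response was not tested.

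**Figure D2:**
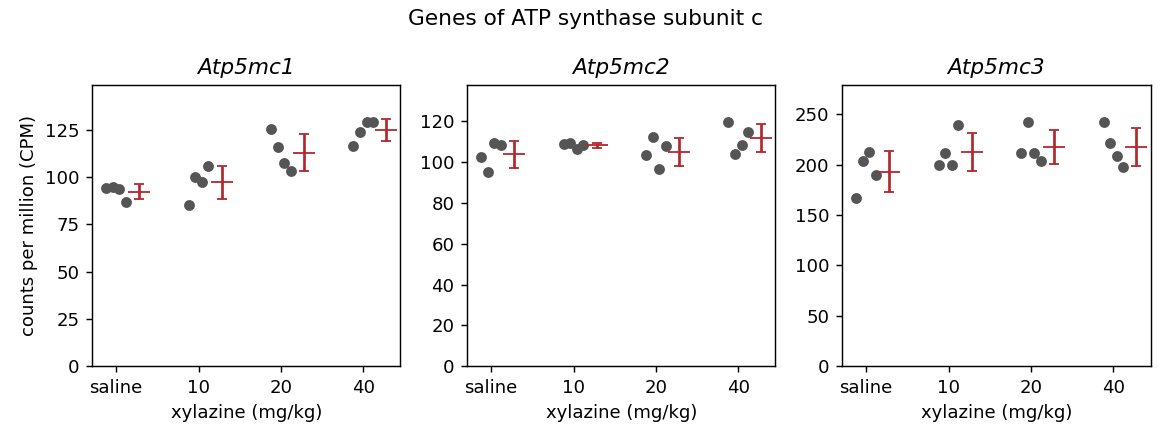
CPM of the 3 subunit c genes by xylazine dose in mg/kg, with 1 grey point per animal (4 per group) and a red mean with SD. Atp5mc1 has group means of 92.2 and 125 CPM in the saline and 40 mg/kg animals, which do not overlap, while Atp5mc2 and Atp5mc3 overlap between these groups.

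The 3 genes are known in mammals to be regulated separately at the level of transcription, so the 250 bases before each RefSeq start site (build GRCr8, minus strand in each case) are shown, 5′ to 3′. Capitals mark matches, on either strand, to the motifs searched, which are given after the sequences. The windows lie at chr10:81523346-81523595 for Atp5mc1, chr7:135678219-135678468 for Atp5mc2 and chr3:79220665-79220914 for Atp5mc3.
Atp5mc1: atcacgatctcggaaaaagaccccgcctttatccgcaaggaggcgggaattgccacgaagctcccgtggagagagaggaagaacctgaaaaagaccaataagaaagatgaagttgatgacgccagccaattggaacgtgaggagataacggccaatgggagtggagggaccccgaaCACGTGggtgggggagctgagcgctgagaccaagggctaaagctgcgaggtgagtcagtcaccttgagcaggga
Atp5mc2: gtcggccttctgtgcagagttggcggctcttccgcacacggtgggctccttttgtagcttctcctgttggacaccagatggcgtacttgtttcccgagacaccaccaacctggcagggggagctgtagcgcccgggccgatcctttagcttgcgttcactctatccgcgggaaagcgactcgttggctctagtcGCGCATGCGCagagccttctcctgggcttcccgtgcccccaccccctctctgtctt
Atp5mc3: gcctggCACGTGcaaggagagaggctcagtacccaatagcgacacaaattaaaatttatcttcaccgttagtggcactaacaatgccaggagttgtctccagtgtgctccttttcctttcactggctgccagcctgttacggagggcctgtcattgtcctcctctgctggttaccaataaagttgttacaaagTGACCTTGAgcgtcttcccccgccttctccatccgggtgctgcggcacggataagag

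The motifs were searched on both strands over 300 bases, 250 before to 50 after each RefSeq start. They were the NRF1 core GCATGCGC, the ETS core CCGGAAG bound by GABP, the YY1 core AAGATGGC, the E-box CACGTG, the cAMP response element TGACGTCA and the oestrogen-related receptor (ERR) element TCAAGGTCA. Atp5mc1 held an E-box 74 bases upstream of its start and none of the other 5. Atp5mc2 held NRF1 cores on both strands, overlapping each other from 56 and 54 bases upstream. Atp5mc3 held an E-box from 244 bases and an ERR element from 57 bases upstream. A match is a description of these letters and not a binding site.

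Of the 84 genes, 71 had a promoter window. The YY1 core was present in 15 of them (21.1%), against 5.48% of 10434 tested genes with a window and 3.44% of all 27457 windows. The NRF1 core was present in 8 (11.3%, against 4.82% and 2.66%) and the ETS core in 21 (29.6%, against 17.7% and 9.22%). The ERR element was present in 2 windows (2.82%, against 0.23% and 0.412%), those of Atp5mc3 and Sdhd. The cAMP response element was in 4 (5.63%, against 3.06% and 1.91%) and the E-box in 6 (8.45%, against 9.29% and 6.65%). The NRF1 core was in 0 of 14 complex IV windows and in 4 of 16 complex V windows (Atp5mc2, Atp5me, Atp5mg and Atp5po). These counts are small, and a difference between complexes was not tested.

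Over all subunit genes, 1 of 78 passed at 40 mg/kg, against a background of 1.11% of 12732 genes. None passed at 10 mg/kg (background 0%) or at 20 mg/kg (background 0%). None passed between 10 and 20 mg/kg (background 0%), between 20 and 40 mg/kg (background 0%) or between 10 and 40 mg/kg (background 0.361%). In the test of any dose 1 passed (background 0.361%) and in the linear trend 1 passed (background 2.91%). These shares are near their backgrounds. By edgeR, 1 subunit gene had an unadjusted p under 0.05 at 10 mg/kg, 5 at 20 mg/kg and 7 at 40 mg/kg, and each of these was higher than saline. At 10, 20 and 40 mg/kg these were 1.28%, 6.41% and 8.97% of the subunit genes. Of all genes tested, 3.998%, 9.13% and 16.2% had such a p at these doses, in either direction. The share thus rose with dose among all genes too, and that of the subunit genes was lower at each dose. Of the 78 genes, 3.85%, Atp5mc1 and Atp5po among them, were above saline at 40 mg/kg with no overlap between animals, and none was below. Of all genes tested, 4.45% were above and 4.85% below without overlap, 9.30% in either direction. At 10 and 20 mg/kg, 1.28% and 2.56% of the subunit genes were above saline without overlap and none was below. These shares are near those of all genes, 1.09% and 2.29% above saline.

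The estimates were nonetheless mostly above 0. The log2 fold change was positive for 58 of 78 genes at 10 mg/kg (median 0.03), for 61 at 20 mg/kg (median 0.08) and for 65 at 40 mg/kg (median 0.09), where 49.9% to 50.5% of all genes were positive and their median was 0.00. The 3 comparisons share their saline animals. Single genes cannot be read as replicates of each other, because the same 4 animals give them all.

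The size of a change that these data could hide was small for most members. The 95% interval of the log2 fold change at 40 mg/kg lay within a 1.5-fold change in either direction for 75 of 78 subunit genes, against 60.8% of all genes tested. The 3 exceptions were Atp5mc1, Ndufa10l1 and Cox7a2l2. The median SE was 0.091 for the subunit genes and 0.142 for all genes. At 10 and at 20 mg/kg the interval was within 1.5-fold for 76 of 78 genes, with Ndufa10l1 and Cox7a2l2 outside it.

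**Figure D3:**
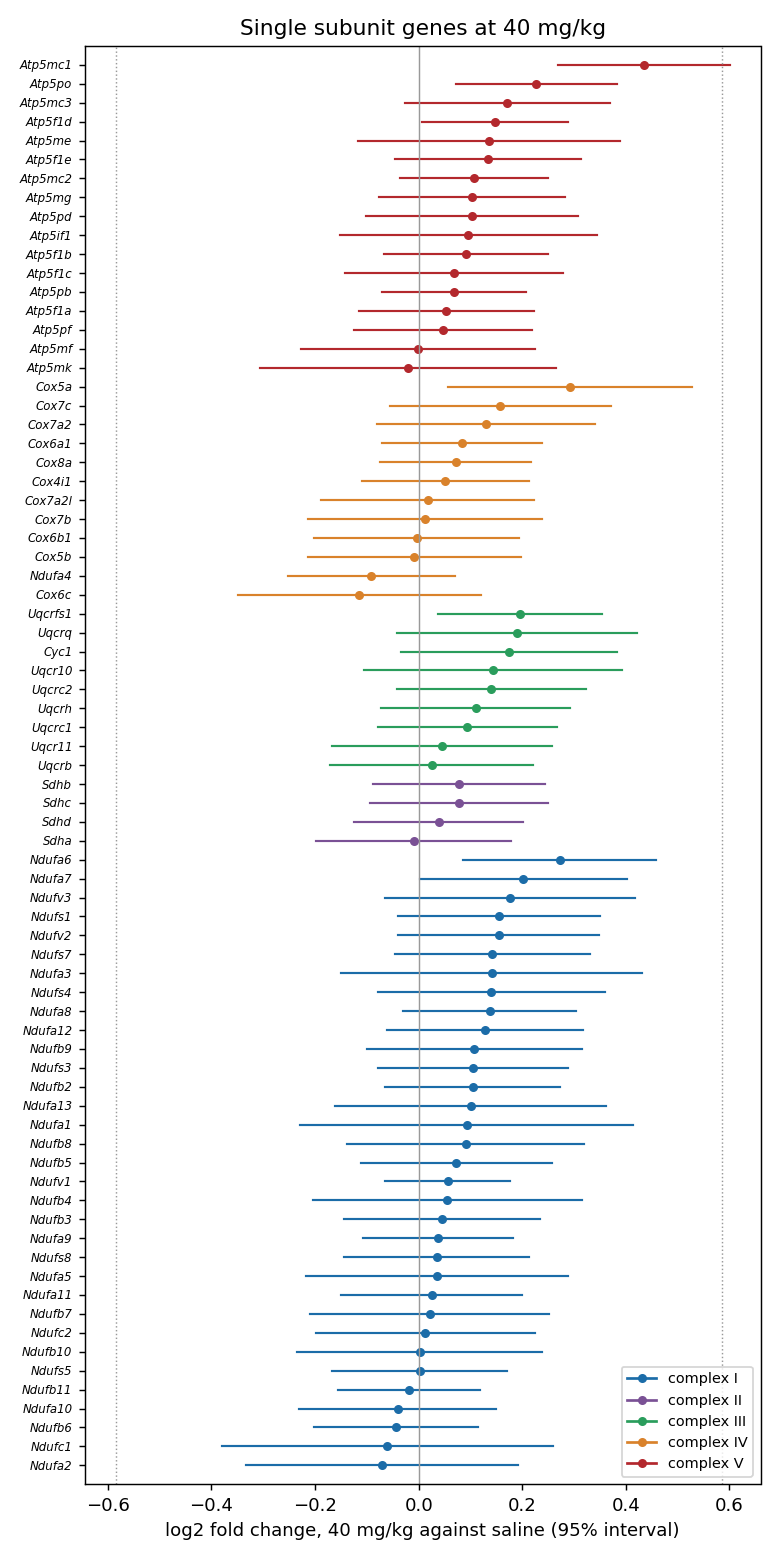
Log2 fold change at 40 mg/kg against saline with its 95% interval (edgeR, 4 animals per group) for 75 of the 78 tested subunit genes, ordered within each complex; those left out include Ndufa10l1 and Cox7a2l2, whose intervals are wider than the axis. Dotted lines mark a 1.5-fold change, and Atp5mc1 is the gene whose interval crosses one.

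Complex I, the NADH dehydrogenase, showed a median log2 fold change of 0.03 at 10 mg/kg, 0.07 at 20 mg/kg and 0.09 at 40 mg/kg. At 40 mg/kg 30 of its 35 tested genes had positive estimates and none passed. The smallest p was that of Ndufa6, an accessory subunit of the matrix arm. Ndufa6 was at 60.4, 58.8, 68.9 and 69.8 CPM in saline and at 85.3, 68.4, 76.6 and 81.1 CPM at 40 mg/kg. On this CPM scale the groups overlapped by 1 animal, and the log2 fold change was 0.27 (SE 0.088, adjusted p 0.131 by edgeR). On the TPM scale, which lay higher for all genes at 40 mg/kg, they did not overlap. Ndufa6 was at 353 to 396 TPM in saline and 407 to 492 TPM at 40 mg/kg. Its trend did not pass (adjusted p 0.154 by edgeR), but passed with total count scaling and both log2 TPM settings. Its level at 20 mg/kg, 65.6 ± 5.89 CPM, was close to that of saline, 64.5 ± 5.67 CPM. Ndufv1, the NADH-binding core subunit, averaged 107 ± 3.13 CPM in saline and 111 ± 3.76 CPM in the 40 mg/kg group, and Ndufs1, the large iron-sulfur core subunit, at 98.4 ± 5.70 and 110 ± 12.3 CPM. Ndufa10 was at 98.7 ± 5.90 CPM in saline and 96.0 ± 10.8 CPM at 40 mg/kg, and Ndufa2 at 33.0 ± 4.01 and 31.4 ± 3.22 CPM, so neither had a direction beyond its SE.

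Ndufa10l1 ranged from 0 to 18.2 CPM and was at 0 in 1 animal each of the saline, 10 and 20 mg/kg groups. Its symbol marks it as like Ndufa10, and how reads shared by the 2 genes were divided was not stated, so its own level is uncertain. The sum of Ndufa10 and Ndufa10l1 was 105 ± 4.52 CPM in saline, 113 ± 5.64 at 10 mg/kg, 115 ± 10.6 at 20 mg/kg and 108 ± 7.67 at 40 mg/kg, with overlap between groups.

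Complex II, succinate dehydrogenase, had median log2 fold changes of 0.05, 0.12 and 0.06 at 10, 20 and 40 mg/kg, and none of its 4 genes passed. Sdhb, the iron-sulfur subunit, was at 98.9, 107, 104 and 98.0 CPM in saline and at 118, 126, 95.9 and 113 CPM at 20 mg/kg. It was at 106, 109, 112 and 104 CPM at 40 mg/kg. On this CPM scale the 20 mg/kg group held both the highest and the lowest Sdhb value of these 12 animals, and its animal 3 was also the lowest of its group for Sdha, Sdhc and Sdhd. On the TPM scale, which does not use the TMM factors, Sdhb was at 206, 217, 193 and 198 TPM at 20 mg/kg, all above the saline animals at 175, 191, 178 and 164 TPM. The median log2 fold change of all genes at 20 mg/kg was also higher on log2 TPM plus 1, 0.05, than with TMM factors, 0.00. Animal 3 at 20 mg/kg ranked differently on the 2 scales. CPM values are divided by the TMM factor, which was 1.10 in this library and 0.924 to 1.06 in the others. The low CPM values of animal 3 therefore cannot be read as a trait of that animal. The summed level of all 84 genes in animal 3, 29550 TPM, was the highest of its group, whereas its median log2 CPM over the tested genes, -0.00, was the lowest. All 4 genes had lower estimates at 40 than at 20 mg/kg (median log2 difference -0.09, none passing). Sdha averaged 259 ± 12.5 CPM in saline and 257 ± 29.9 CPM at 40 mg/kg.

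Complex III, the cytochrome bc1 complex, had the largest median log2 fold change of the 5 complexes at 40 mg/kg, 0.14, after 0.07 and 0.13 at 10 and 20 mg/kg. All 9 of its genes had positive estimates at 40 mg/kg and none passed. The smallest p was that of Uqcrfs1, the Rieske iron-sulfur protein. Uqcrfs1 was at 137, 141, 141 and 147 CPM in saline. Animals given 10 mg/kg had 159, 157, 148 and 170 CPM, those given 20 mg/kg had 172, 167, 146 and 162 CPM, and those given 40 mg/kg had 167, 162, 176 and 144 CPM. On this CPM scale the 10 mg/kg animals all lay above saline, as did 1.09% of all genes tested. One-sided separation was not seen at the higher doses, where 1 animal each fell within the saline range. On the TPM scale, which lay higher for all genes at 20 and 40 mg/kg, no dose overlapped saline. Uqcrfs1 was at 191 to 198 TPM in saline and at 209 to 219, 226 to 237 and 206 to 256 TPM at 10, 20 and 40 mg/kg. The log2 fold change at 40 mg/kg was 0.20 (SE 0.075, adjusted p 0.200 by edgeR). Cyc1, cytochrome c1, averaged 103 ± 10.3 CPM in saline and 116 ± 14.96 CPM at 40 mg/kg, and Uqcrc2, a core protein, 163 ± 3.72 and 179 ± 23.0 CPM.

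Complex IV, cytochrome c oxidase, had the smallest median at 40 mg/kg, 0.02, after 0.02 and 0.04 at 10 and 20 mg/kg. At 40 mg/kg 8 of 13 tested genes had positive estimates. Cox5a, a subunit on the matrix side, had the smallest p. It was at 56.1, 50.9, 63.4 and 60.5 CPM in saline and at 91.3, 58.5, 63.3 and 69.6 CPM at 40 mg/kg. The groups overlapped, and animal 1 of the 40 mg/kg group, the library that stood apart, was the highest of all 16. The log2 fold change was 0.29 (SE 0.111, adjusted p 0.201 by edgeR) with that library, and 0.14 at its lowest over the removals of single libraries. Ndufa4 was at 191 ± 10.9 CPM in saline and 179 ± 14.1 CPM at 40 mg/kg (log2 fold change -0.09, adjusted p 0.597). Cox6c was at 123 ± 15.2 and 114 ± 11.5 CPM. Group means of Ndufa2, Ndufa4 and Cox6c were lower at each dose step, and those of 19 of the 78 genes were higher at each step. The share of all genes with such steps was not counted, so these counts cannot be read as a response of the subunit genes. Between 20 and 40 mg/kg 47 of 78 estimates were positive, and 18 without animal 1 of the 40 mg/kg group. Cox7a2l2 was between 0 and 4.64 CPM, with 0 in 2 animals at 20 mg/kg and in 1 at 40 mg/kg, and its level is uncertain for the same reason as that of Ndufa10l1.

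Complex V, ATP synthase, had median log2 fold changes of 0.05, 0.10 and 0.10 at 10, 20 and 40 mg/kg. At 40 mg/kg 15 of 17 tested genes had positive estimates, and all 17 had a positive trend, of which Atp5mc1 passed. Atp5po, the OSCP subunit of the stalk that joins the catalytic head to the membrane part, came next. Atp5po was at 99.3, 93.6, 104 and 93.3 CPM in saline and at 124, 107, 115 and 110 CPM at 40 mg/kg. The 40 mg/kg animals all lay above saline, but the log2 fold change of 0.23 (SE 0.074) did not pass (adjusted p 0.133), nor did its trend of 0.25 (adjusted p 0.0622 by edgeR). Atp5f1d, the delta subunit of the central stalk, was at 84.2 ± 4.37 CPM in saline and 93.3 ± 4.33 CPM at 40 mg/kg (log2 fold change 0.15, adjusted p 0.284). The catalytic head subunits did not pass. Atp5f1a was at 631 ± 32.2 and 655 ± 34.6 CPM, and Atp5f1b at 1268 ± 62.8 and 1351 ± 59.6 CPM. Atp5if1, the inhibitor of the enzyme's ATPase activity, was at 14.5 ± 2.12 and 15.6 ± 1.54 CPM, Atp5mf at 104 ± 13.5 and 104 ± 13.6 CPM, and Atp5mk at 11.5 ± 0.846 and 11.3 ± 1.499 CPM.

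**Figure D4:**
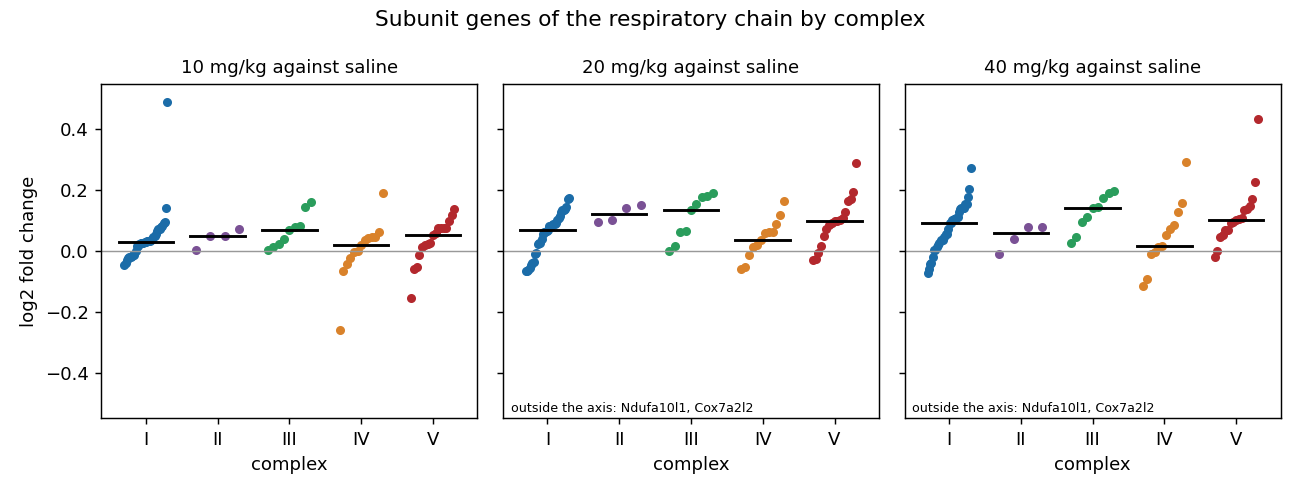
Log2 fold change of each tested subunit gene against saline at 10, 20 and 40 mg/kg, grouped by complex, with 1 point per gene and a black bar at the complex median. Medians at 40 mg/kg run from 0.02 in complex IV to 0.14 in complex III, and Ndufa10l1 and Cox7a2l2 are outside the axis at 20 and 40 mg/kg.

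Levels in single animals, as the median over the genes of a complex, overlapped between saline and each dose for complexes I, III, IV and V. For complex II these medians overlapped at 10 and 20 mg/kg but not at 40 mg/kg. The median log2 CPM of the 78 genes, relative to each gene's saline mean, was -0.00, -0.09, 0.11 and -0.03 in the 4 saline animals. It was -0.01, 0.00, 0.01 and 0.14 at 10 mg/kg, 0.09, 0.18, -0.00 and 0.07 at 20 mg/kg, and 0.22, 0.01, 0.08 and 0.01 at 40 mg/kg. The saline group thus spanned about as wide a range as the treated groups. For complex III the animals ran from -0.11 to 0.20 in saline and from 0.02 to 0.24 at 40 mg/kg. For complex IV they ran from -0.13 to 0.11 and from -0.08 to 0.19. For complex II the spread was narrow in saline (-0.04 to 0.02) and at 40 mg/kg (0.03 to 0.08) and wide at 20 mg/kg (-0.09 to 0.27). The gap between saline and 40 mg/kg was small, from 0.022 to 0.029, and rests on 4 genes. On the mean log2 CPM of these genes the groups overlapped, at -0.023 to 0.015 in saline and -0.017 to 0.087 at 40 mg/kg. No single complex II gene was free of overlap at 40 mg/kg. The summed TPM of complex II ran from 632 to 686 in saline, from 650.5 to 708 at 10 mg/kg, from 724 to 794 at 20 mg/kg and from 698 to 752 at 40 mg/kg, so on that scale neither higher dose overlapped saline. The TPM scale itself lay higher at these doses. On log2 TPM plus 1 the median log2 fold change of all genes was 0.05 at 20 mg/kg and 0.07 at 40 mg/kg, against 0.00 with TMM factors. The part of this shift in the summed TPM values given here was not tested. The summed TPM of all 84 genes was 26364 ± 1173 in saline and 28705 ± 1750 at 40 mg/kg (SD, n = 4), or 2.64% and 2.87% of transcripts, with ranges that overlapped. No test of a difference between complexes was made.

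The upward lean moved with single libraries, treated and saline. Animal 1 given 40 mg/kg was the highest of the 16 on the median of the 78 genes, 0.22, and had the longest implied effective length. Without it, 51 of 78 estimates were positive with a median of 0.04, in place of 65 and 0.09. The complex I median was then 0.02 and the complex IV median -0.02, whereas those of complexes II, III and V were 0.07, 0.12 and 0.07. With the implied lengths as an offset the median of the 78 genes was 0.05. At 10 mg/kg the median turned to -0.00 with 35 of 78 positive without animal 4, and at 20 mg/kg it was 0.04 with 55 positive without animal 2. Leaving out saline animal 2, the lowest of its group, gave medians of 0.00, 0.05 and 0.06 at 10, 20 and 40 mg/kg, with 42, 51 and 56 of 78 positive, and complex IV medians of -0.03, -0.01 and 0.01. The median at 10 mg/kg was also 0.07 without saline animal 3 and 0.05 without 10 mg/kg animal 3.

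**Figure D5:**
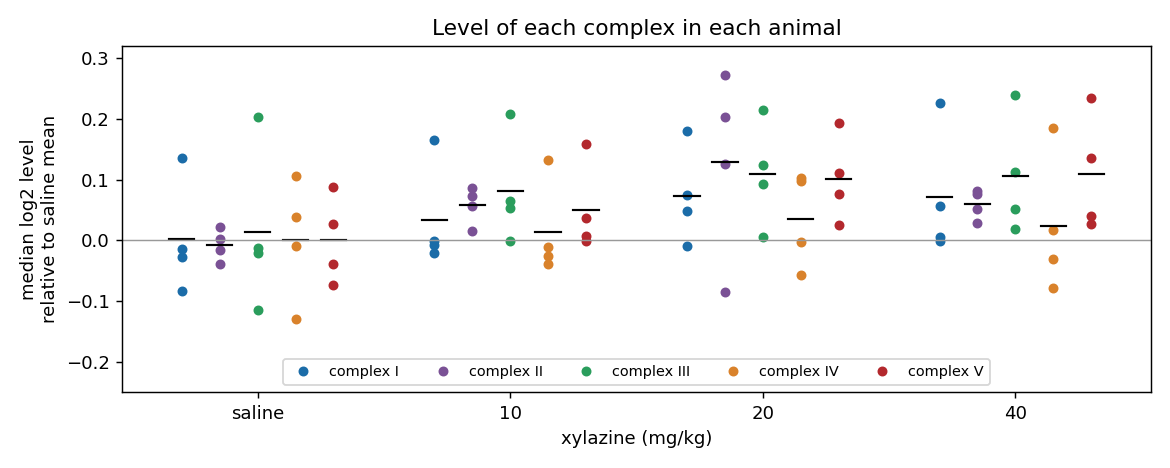
Median log2 CPM of each complex in each of the 16 animals relative to the mean of saline, by xylazine dose in mg/kg, with coloured points for the complexes and black bars for group means. On this median saline and 40 mg/kg animals overlap for complexes I, III, IV and V but, by a small gap, not for complex II. The mean log2 CPM of the complex II genes overlaps between these groups. The highest complex I point at 40 mg/kg, 0.23, is that of animal 1.

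Genes that serve the chain were compared with its subunits. Assembly factors of complexes I, II, III, IV and V had 12 of 17, 2 of 3, 4 of 6, 13 of 23 and 6 of 6 tested genes with positive estimates at 40 mg/kg, and none passed. Their medians were 0.06, 0.11, 0.03, 0.01 and 0.13. Ndufaf4, a complex I assembly factor, passed in the trend at 0.51 (SE 0.135, adjusted p 0.0494 by edgeR), with 14.3 ± 2.47 CPM in saline against 19.5 ± 1.54 CPM in the 40 mg/kg animals, and lost that call in 13 of 16 removals of a library and in 7 alternatives that kept all libraries. Of the mobile electron carriers and entry enzymes, 14 of 23 had positive estimates (median 0.08) and none passed in either direction. Cycs, the cytochrome c gene, was at 215 ± 27.1 CPM in saline and 247 ± 59.3 CPM at 40 mg/kg (adjusted p 0.567). Of the carriers for ATP and phosphate, 8 of 11 were positive (median 0.02) and none passed, and the 3 tested uncoupling protein genes, Ucp2 among them, were all negative (median -0.10) with none passing. The 3 tested supercomplex factors were positive (median 0.05), and none passed.

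Of the cristae genes, 13 of 16 had positive estimates at 40 mg/kg (median 0.08) and 1 rose, against a background of 1.11% of all genes. Samm50, the core of the outer membrane sorting machinery that contacts the cristae, was at 45.8, 40.9, 51.8 and 42.5 CPM in saline and at 57.5, 54.1, 63.4 and 56.8 CPM at 40 mg/kg. The animals did not overlap, and the log2 fold change was 0.36 (SE 0.083, adjusted p 0.0491 by edgeR), a call lost in 14 of 16 removals of a library and in 5 alternatives that kept all libraries (no filter, the replicate block, scaling by total count or by DESeq2 size factors, and the compared groups alone). Its trend was 0.36 (adjusted p 0.0224) and was lost without 40 mg/kg animal 3.

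The tricarboxylic acid cycle, which supplies NADH and succinate to complexes I and II, had 17 of 19 positive estimates at 40 mg/kg with a median of 0.18. By edgeR, 10 of the 19 had an unadjusted p under 0.05 at 40 mg/kg, each higher than saline. Among all genes tested the share was 16.2%, in either direction. None passed at 40 mg/kg (background 1.11%). Pdha1 and Dlat, both subunits of pyruvate dehydrogenase, rose in the trend (background 2.91% of all genes). A difference from the subunit genes was not tested. Pdha1 was at 99.2, 117, 101 and 121 CPM in saline and at 122, 137, 150 and 151 CPM at 40 mg/kg. These groups did not overlap, and the trend was 0.36 (SE 0.080, adjusted p 0.0264 by edgeR), a call lost without saline animal 1 or 40 mg/kg animal 3 or 4 (adjusted p up to 0.0858). Dlat went from 19.0 ± 1.95 to 24.4 ± 2.82 CPM, with a trend of 0.38 (SE 0.101, adjusted p 0.0480) that was lost in 12 of 16 removals and in 5 alternatives that kept all libraries.

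Regulators of mitochondrial biogenesis had 16 of 28 positive estimates at 40 mg/kg (median 0.01). Esrra, the nuclear receptor ERR alpha, and Tfb2m, which initiates transcription of mitochondrial DNA, rose in the trend and none fell (background 2.91% of all genes). Esrra was at 13.1, 12.8, 13.6 and 14.0 CPM in saline and at 16.02, 17.5, 19.2 and 14.9 CPM at 40 mg/kg, without overlap, with a trend of 0.36 (SE 0.082, adjusted p 0.0295 by edgeR) that was lost without saline animal 2 or 40 mg/kg animal 2 or 3 (adjusted p up to 0.0888). Tfb2m went from 33.3 ± 1.48 to 39.6 ± 2.44 CPM with a trend of 0.28 (adjusted p 0.0294) that was lost without saline animal 2 or 4 or 40 mg/kg animal 1, 2 or 3. Nrf1 was at 6.63 ± 0.368 and 6.70 ± 0.591 CPM, Gabpa at 21.5 ± 2.14 and 22.6 ± 2.24 CPM, and Tfam, which packages mitochondrial DNA, at 30.7 ± 1.46 and 30.4 ± 1.51 CPM, none of them past the test. Ppargc1a, the coactivator PGC-1 alpha, was at 3.62 ± 1.597 CPM in saline, 6.16 ± 3.05 CPM in the 10 mg/kg animals and 2.98 ± 0.672 CPM in those given 40 mg/kg, and did not pass (trend -0.63, adjusted p 0.434).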

How the data were processed

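Liver messenger RNA of 16 rats was sequenced after isolation and fragmentation, per the labels' protocols. The authors deposited expected counts (estimated reads per gene, not normalized), FPKM and TPM per library. A normalized read count signal that the authors deposited and the authors' averages were not used. Bowtie2, RSEM, DESeq2 and build mRatBN7.2 are named in the submitters' processing notes; versions, roles and strandedness were not given in the sources used here, so reads of overlapping and antisense genes cannot be told apart.

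Expected counts were rounded and filtered (edgeR filterByExpr, minimum count 10, minimum total 15). CPM used TMM factors. edgeR 4.0.16 under R 4.3.3 fitted all 16 animals in a quasi-likelihood model with 4 groups and, for the trend, with dose as a number. The test was two-sided, SE was derived from the F statistic, and p was adjusted by Benjamini-Hochberg over all 12732 genes tested, with 0.05 as the threshold. Single-animal log2 CPM used a prior count of 2. The fit was checked on simulated data. Effective length per library was derived from counts and FPKM. Replicates were 4 samples per group of separate livers. RefSeq GRCr8 tables gave names and promoter windows, with all 84 members matched.

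The rule for members uses gene symbols and no measured value, but it and the lists were chosen with earlier results of these data known. Named genes were members that passed, the 3 highest by TPM and the smallest p in each direction per complex, isoform pairs, the subunit c genes, passing members of the other lists and 6 genes named in any case (Ppargc1a, Nrf1, Gabpa, Esrra, Tfam and Cycs). Ndufs1, Ndufv1, Ndufa10l1, Cyc1, Uqcrc2, Cox6c, Cox7a2l2, Atp5po, Atp5f1a, Atp5f1d and Atp5if1, and the pseudogenes, were named after their values were seen or for their role. A gene is not reported here by name. Alternatives were other scalings (DESeq2 size factors, total count), filters (none, or 5 CPM in 4 libraries), the tests of DESeq2 1.42.0 and of limma-voom (limma 3.58.1), limma on log2 TPM plus 1 or 0.1 and on log2 FPKM plus 1 (at least 1 TPM or FPKM in 4 libraries), a replicate block, compared groups alone, dose as rank, xylazine doses alone, an effective length offset (chosen after seeing the data) and each library left out.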

Additional observations from a re-analysis of the deposited data

Results flagged for a closer look

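In groups of 4 animals, 1 animal lay far from the other 3 for 15 of 196 group values examined, and chance alone places about 5% there. At 10 mg/kg, animal 4 was high on the median log2 level of all subunit genes (0.14, others -0.01 to 0.01), of complex I (0.16, others -0.02 to -0.00) and of complex IV (0.13, others -0.04 to -0.01), and on Ndufa11 (90.1 CPM, others 69.8 to 73.1). Saline animal 4 was low on Atp5mc1 (86.5 CPM, others 93.8 to 94.6), and saline animal 2 was low on Cox6a1 (97.7 CPM, others 114 to 117) and Ndufa4 (175 CPM, others 195 to 198). At 40 mg/kg, animal 1 was high on Atp5mf (124 CPM, others 96.2 to 98.1) and animal 2 was low on Cox4i1 (265 CPM, others 295 to 301). At 20 mg/kg, animal 2 was high on Cox6b1 (105 CPM, others 89.7 to 91.3).

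Outside the subunit genes, Cps1 was low in animal 1 at 20 mg/kg (2609 CPM, others 3188 to 3300) and Ppargc1a high in animal 3 (4.62 CPM, others 2.64 to 2.90). At 10 mg/kg, Dlat was low in animal 1 (18.7 CPM, others 20.5 to 20.8), Samm50 low in animal 3 (45.0 CPM, others 49.5 to 50.1) and Tfam high in animal 2 (32.9 CPM, others 28.2 to 28.8).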

How the results depend on the processing

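The number of subunit genes past the threshold at 40 mg/kg, 1, was 2 with log2 TPM plus 1 (Atp5po added) and 3 with log2 TPM plus 0.1 (Uqcrfs1 added too), and 0 to 1 over the removals of a library. Between 10 and 40 mg/kg it was 1 in place of 0 with total count scaling, DESeq2 and both TPM settings. For any dose it was 0 in place of 1 without the filter, with log2 FPKM, with the replicate block and with the effective length offset, and 0 to 1 over removals. For the trend, 1 became 3 with total count scaling, 2 with DESeq2, log2 FPKM or dose as rank, 6 with either TPM setting and 0 among the xylazine doses alone, while it was 1 in all 16 removals. Total count and TPM settings also moved the median of all genes at 40 mg/kg, to 0.06 and 0.07 (plus 1) or 0.08 (plus 0.1) from 0.00. The complex II trend median was 0.14 with either TPM setting in place of 0.05. Among the xylazine doses alone it was -0.02, over the shorter span from 10 to 40 mg/kg. The trend calls of Samm50, Pdha1, Esrra, Tfb2m, Pdgfrb and Cidec were also lost among the xylazine doses alone, and that of Cidec with both TPM settings. DESeq2 called 523 genes of all tested at 40 mg/kg where edgeR called 141, and 54 at 20 mg/kg where edgeR called 0.

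Atp5mc1 at 40 mg/kg kept its call in 12 of 12 alternatives with all libraries (log2 0.42 to 0.50). Replicate numbers did not pair the animals: 24 same-numbered pairs had correlations of -0.10 to 0.28, and 5 of 16 libraries matched their own number best. With the replicate block Atp5mc1 had an adjusted p of 0.0362 at 40 mg/kg. No direction was assessed for named genes whose change was below 1 SE. Precision is limited by 4 animals per group, and short effective lengths and reads shared with near copies limit the levels of single genes.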

Other observations

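Liver cell marker lists were described beside the chain at 40 mg/kg. Of all genes tested, 1.11% passed at 40 mg/kg and 2.91% in the trend. Of 10 stellate cell and pericyte markers 9 had positive estimates (median log2 0.34), none passed at 40 mg/kg, and Pdgfrb, a pericyte receptor, rose in the trend by 0.44 (SE 0.105, adjusted p 0.0351 by edgeR), from 20.3 ± 1.12 to 27.4 ± 4.98 CPM (SD, n = 4), a call lost without saline animal 1, 2 or 4 or 40 mg/kg animal 1 or 3. Of 10 mesothelial markers 9 were positive (median 1.0) and none passed. Hepatocyte markers were positive in 3 of 16 (median -0.09), and Cps1, the first enzyme of the urea cycle, fell in the trend (-0.43, SE 0.111, adjusted p 0.0451), from 3537 ± 323 to 2587 ± 447 CPM, a call lost in 13 of 16 removals of a library and in 7 alternatives that kept all libraries. Cidec, a lipid droplet protein on the white fat list, fell in the trend (-0.45, SE 0.109, adjusted p 0.0352), from 59.6 ± 6.98 to 44.0 ± 5.78 CPM, a call lost without saline animal 2 or 4 or 40 mg/kg animal 3 or 4. Kupffer cell markers were positive in 7 of 12 (median 0.04) and endothelial markers in 8 of 10 (median 0.18), with none passing. Red blood cell precursor genes had positive estimates in 6 of 7 (median 0.28) after a median of -0.84 at 20 mg/kg, T and NK cell markers in 0 of 4 (median -0.28) and cholangiocyte markers in 3 of 5 (median 0.00) after -0.54 at 20 mg/kg, with none passing at either dose. Among tested muscle, brown fat and white fat markers 1 of 4, 1 of 2 and 1 of 2 were positive. Any part of these cells in the subunit levels was not tested.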
